A study of Mus musculus with 4 samples.

Results

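The solute carrier genes of 11 subfamilies that move ions, bicarbonate and metals were followed in neurons depleted of DcpS. They were chosen by name alone, as every row of the deposited count table named Slc4, Slc8, Slc9, Slc11, Slc12, Slc24, Slc26, Slc30, Slc39, Slc40 or Slc41 followed by the letter a and a number. The name rule found 77 of the 32681 genes in the table, and 62 of the 77 had enough reads to be tested. All 4 libraries came from primary neuron cultures of neocortex from wild-type CD-1 mice, an outbred strain, at embryonic day 13. Each culture was transfected with a short hairpin RNA (shRNA), a control hairpin in 2 of them and a hairpin against DcpS in the other 2. DcpS is the enzyme that breaks down the cap left over after mRNA decay from the 3′ end. The sources used here give neither the share of cells transfected nor the hairpin sequences. Nor do they say whether the cultures were of separate litters, and the p-values then reflect only how these libraries vary, which may be technical.

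These carriers set the ionic conditions under which neurons work. Slc12 cotransporters load or remove chloride and so decide whether GABA excites or inhibits a cell, and the importer Slc12a2 (NKCC1) dominates in immature neurons before the exporter Slc12a5 (KCC2) takes over. Slc4 and Slc26 carriers move bicarbonate and other anions, Slc9 carriers exchange sodium for protons, and Slc8 and Slc24 carriers extrude calcium in exchange for sodium. Slc39 (ZIP) carriers bring zinc and other metals into the cytosol, Slc30 (ZnT) carriers take them out, Slc11 and Slc40 carriers handle iron and related metals, and Slc41 carriers handle magnesium.

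The libraries held 17754768 to 21793685 reads, and values are normalised read counts, which are reads divided by 1 size factor per library. A count of 0 allows up to 3 reads, or 0.138 to 0.169 CPM at these depths, which covers counting error only. Dcps itself was at 499.8 and 507 (controls) against 114 and 119.6 (DcpS shRNA), or 23.3% of the control mean. Neuron markers were abundant, with Tubb3 at 19864 and 19679 (controls) against 19013 and 19935 (DcpS shRNA) and Map2 at 21604 and 21319 (controls) against 21924 and 20246 (DcpS shRNA). All 8 neuron markers were tested: Rbfox3 was higher (0.24 on the log2 scale), the presynaptic genes Snap25 (−0.26) and Syt1 (−0.22) were lower, and 5 were not called. Markers of other cells were below Tubb3 and Map2, but some exceeded other neuron markers, and several moved with the groups. The choroid plexus gene Ttr, for example, had a mean of 4517 over the 4 libraries, against 3456 for Snap25 and 1446 for Syt1. The summed count of 8 meningeal fibroblast markers was 16369.5 to 17743 in the controls and 10058 to 10443 with DcpS shRNA, with 7 of 8 lower. That of 9 endothelial and mural markers was 726 to 797 in the controls and 435 to 467 with DcpS shRNA. Most of it was Pdgfrb, at 506 and 534 (controls) against 329 and 304 (DcpS shRNA). Of 7 tested, 3 were lower, namely Pdgfrb (−0.72), Kdr (−0.74) and Acta2 (−1.93). Rgs5 (−1.27), Cdh5 (−0.59), Tagln (0.51) and Pecam1 (0.93) were not called, and the endothelial gene Cldn5 was at 0 to 1.90. None of the markers of these and the other cell types looked at was at 0 in all 4 libraries. In bulk RNA, fewer cells of a type and less RNA per cell cannot be told apart, and the part of these shifts in the transporter results was not tested.

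More transporter genes were called lower than higher with DcpS shRNA. The median absolute log2 fold change was 0.13 over the tested members and 0.11 over all genes tested. A gene was called where its p from limma, adjusted over all genes by Benjamini-Hochberg, was under 0.05, and every adjusted p here is of that kind. Of 62 tested members 10 were called, 9 lower and 1 higher, which is 16.1% of the members against 5.79% of all 18110 genes tested. The lower calls were 14.5% of the members against a background of 3.65%, and the higher call 1.61% against 2.14%. The median log2 fold change was −0.06 over the members and 0.00 over all genes tested, on the scale of log2(normalised read count + 1), which understates the change of low genes. On that scale 35 members (56.5%) lay below 0 and 27 above, where 49.8% of all genes tested lay below 0. The lower genes were the bicarbonate carriers Slc4a4, Slc4a5 and Slc4a8, the chloride importer Slc12a2, the anion carriers Slc26a2 and Slc26a7, the zinc importers Slc39a8 and Slc39a11, and the magnesium carrier Slc41a1. Of these, Slc39a8 had enough reads to be tested only in its controls.

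**Figure D1:**
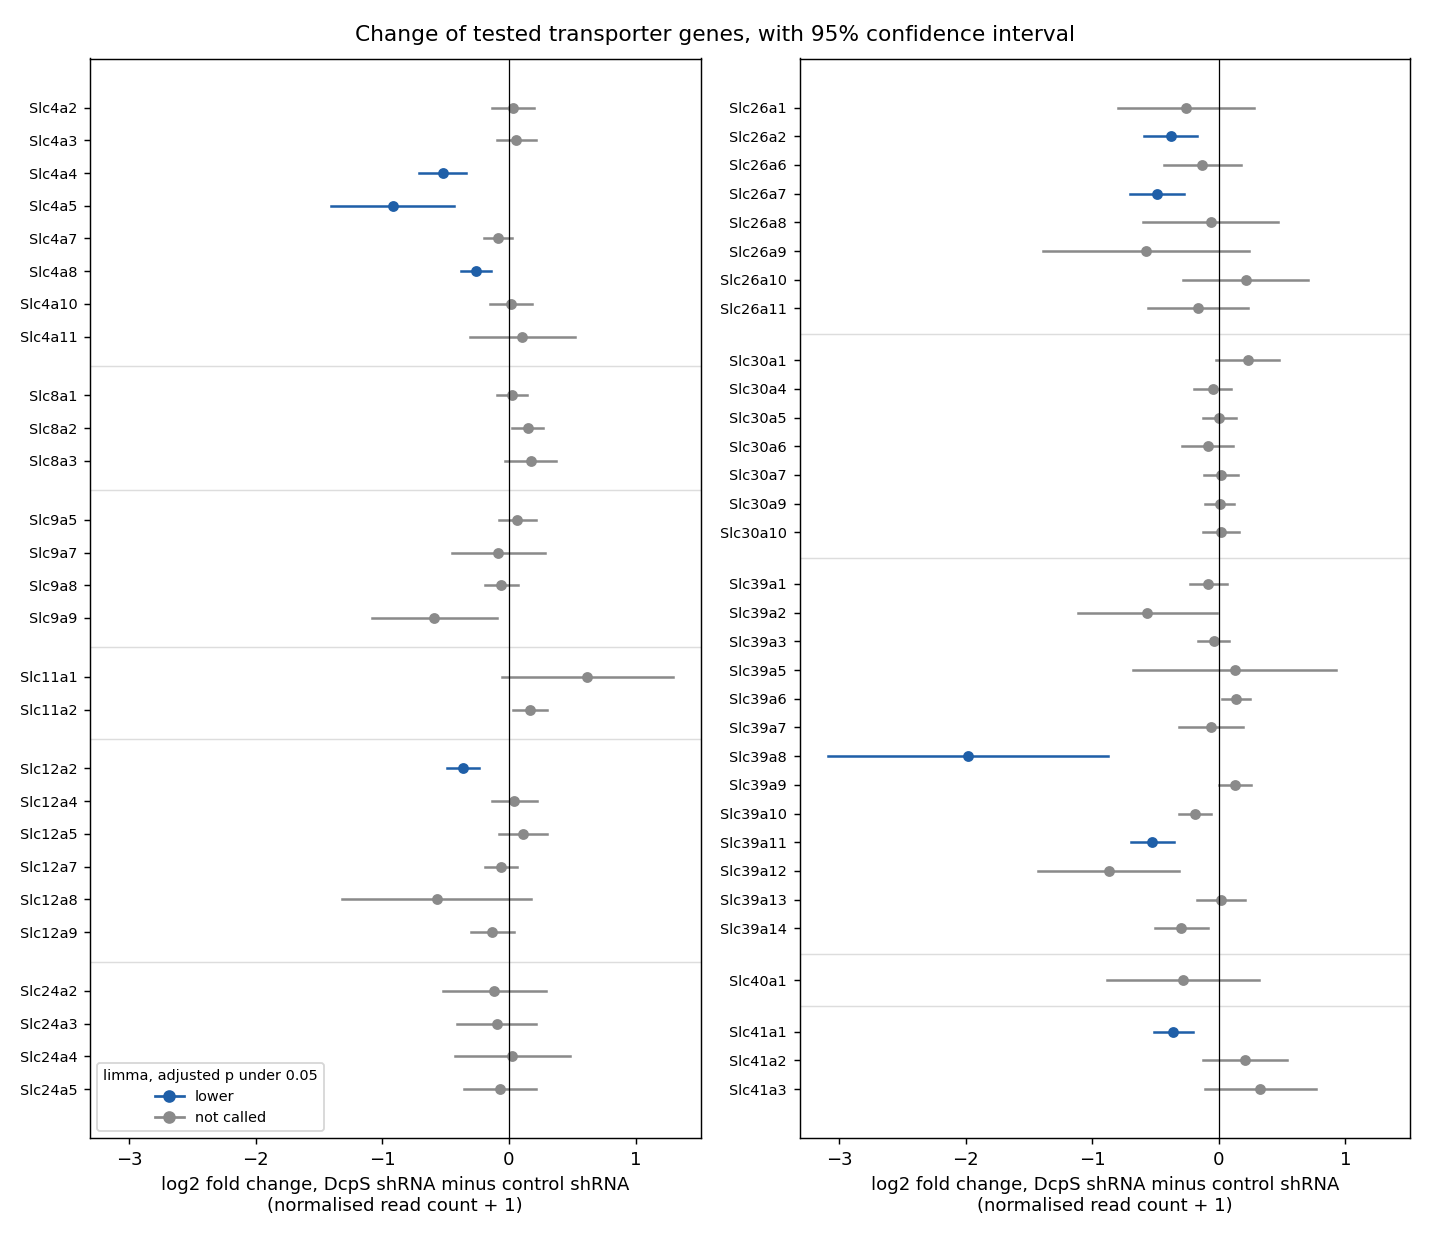
Log2 fold change (DcpS shRNA minus control shRNA, x axis) of 59 of the 62 tested transporter genes, with its 95% confidence interval from limma as a bar, grouped by subfamily from top to bottom. The 9 lower genes are blue and genes not called are grey. Slc39a8, which had enough reads to be tested only in its controls, has the largest change and the widest interval.

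Both DcpS shRNA libraries lay on the same side of both controls for 41 of 62 members (66.1%, against 48.4% of all genes tested). In 29 members (46.8%) both lay below both controls, against 24% of all genes tested. For a single gene, exact permutation of 2 libraries against 2 gives at best a two-sided p of 0.33, so the calls rest on a spread pooled over genes. The number called depended on the test. edgeR's quasi-likelihood test called 11 of 62 members (5.95% of all genes), the same 10 and 1 more. DESeq2 called 3 of the 56 members to which it gave an adjusted p, against 3.0% of the 14950 genes to which it gave one, namely Slc4a4, Slc12a2 and Slc39a11. Of all genes tested 1048 were called by limma, and 670 without control 1 and 594 without control 2.

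**Figure D2:**
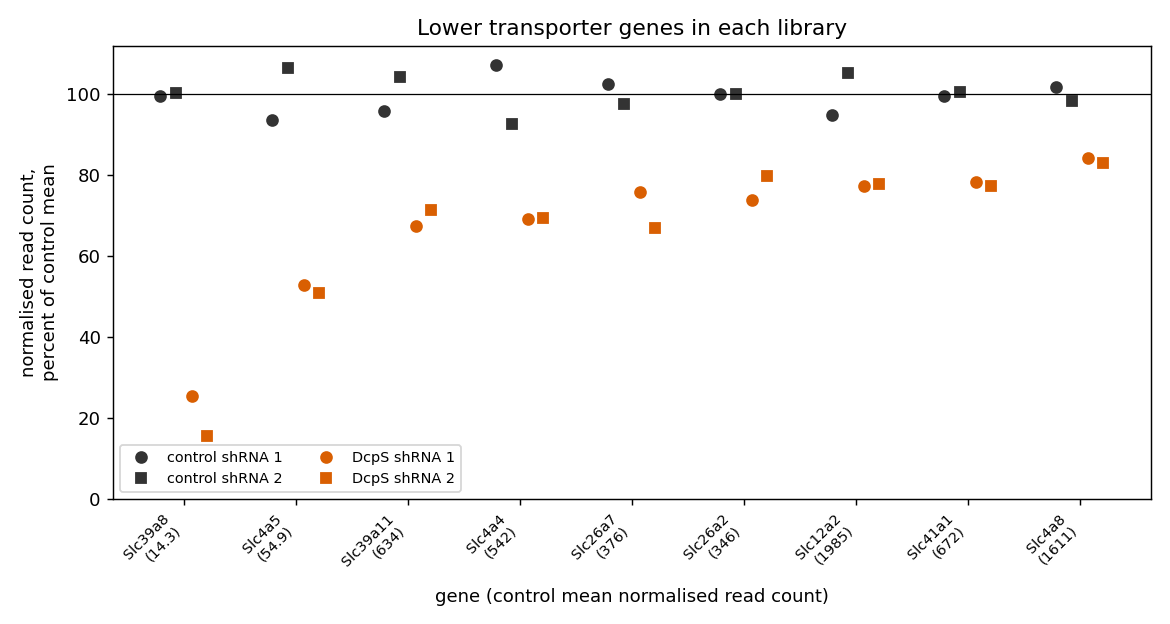
Normalised read count of the 9 lower transporter genes in each library as a percent of the gene's control mean (y axis), ordered by log2 fold change, with the control mean in parentheses under each name. Black symbols are control libraries and orange symbols DcpS shRNA libraries (circle, replicate 1; square, replicate 2), and for every gene shown the 2 groups do not overlap.

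Of the 15 members not tested, none exceeded 12.7 normalised reads in any library, and 9 were seen in all 4 libraries. They were Slc4a1, Slc4a9, Slc9a2, Slc9a3, Slc9a4, Slc12a1, Slc12a3, Slc24a1, Slc26a3, Slc26a4, Slc26a5, Slc30a2, Slc30a3, Slc30a8 and Slc39a4. Among them are Slc4a1, the band 3 anion exchanger of red blood cells, Slc12a1 and Slc12a3, the cotransporters of the kidney tubule, and Slc30a8, the zinc carrier of insulin granules. Slc30a3 (ZnT3), which loads zinc into synaptic vesicles of mature glutamatergic neurons, was at 9.5 and 8.20 (controls) against 8.18 and 11.2 (DcpS shRNA). Slc26a5, which encodes the outer hair cell motor protein prestin, was at 0.950 and 2.05 (controls) against 8.18 and 8.94 (DcpS shRNA), too few reads to test.

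Levels compared between genes are given per length, in RPKM, which scales reads by annotated exon length and by library total. Slc39a6 (ZIP6), a plasma-membrane zinc importer, had the highest mean level of all members, 31.2, followed by Slc39a3 at 15.9, the sodium-calcium exchanger Slc8a2 at 15.4 and Slc39a1 at 15.2. Over the 4 libraries, Slc8a2 spanned 14.5 to 16.5, a range that contains the means of its neighbours Slc39a3 and Slc39a1, so the order of these 3 is not resolved. The highest members of 8 other subfamilies were Slc30a10 (11.6), Slc4a7 (8.76), Slc11a2 (8.68), Slc12a2 (8.15), Slc41a1 (6.14), Slc26a7 (2.99), Slc24a5 (2.98) and Slc40a1 (0.143). Slc12a2, Slc26a7 and Slc41a1 were thus each the highest member of their subfamily and also called, whereas the called genes Slc39a8 (0.0568) and Slc4a5 (0.362) had the lowest level of the tested members of theirs.

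**Figure D3:**
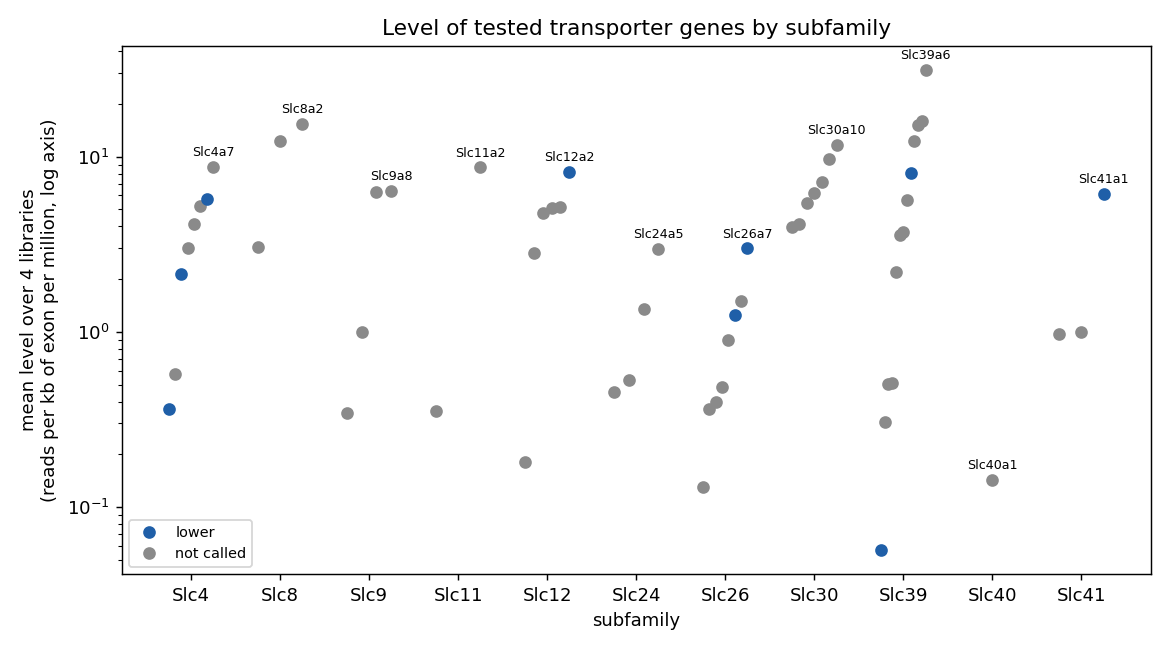
Mean level over the 4 libraries (RPKM, log axis) of 59 of the 62 tested transporter genes, by subfamily, with the highest gene shown in each named. The 9 lower genes, in blue, run from Slc39a8, at the bottom of the range, to Slc12a2 and Slc39a11 in its upper part.

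Among the bicarbonate carriers of the Slc4 subfamily, 3 of 8 tested members were called lower and 0 higher. Slc4a4 (chromosome 5, 88886818 to 89239653, plus strand, GRCm38), the electrogenic sodium bicarbonate cotransporter NBCe1 found mainly in astrocytes in brain, was at 582 and 503 (controls) against 375 and 375 (DcpS shRNA). Both DcpS shRNA libraries were nearly equal and below both controls, and the group means were 542 ± 55.9 and 375 ± 0.171 (SD, n = 2 each). Its log2 fold change was −0.53 (SE 0.09; limma adjusted p 0.00170), and it was called in each of the 15 alternative settings tried. Most astrocyte markers lay below 0 beside it, with a median log2 fold change of −0.43 over the 9 tested. Gfap (−0.91), Aqp4 (−1.13), Gja1 (−0.67) and Sparcl1 (−0.45) were called lower and Aldoc (0.21) higher. Aldh1l1 (−0.43), Slc1a2 (−0.22), Slc1a3 (−0.12) and Fgfr3 (0.06) were not called. The summed count of the 10 markers was 13060.1 to 13274 in the controls and 12431 to 12558 with DcpS shRNA. Their part in the fall of Slc4a4 was not tested.

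Slc4a5 (chromosome 6, 83219828 to 83304945, plus strand), the related cotransporter NBCe2 of the choroid plexus epithelium, was a low-count gene at 51.3 and 58.5 (controls) against 29.1 and 27.9 (DcpS shRNA). With DcpS shRNA it stood at 51.9% of the control mean, and its log2 fold change was −0.92 (SE 0.23; limma adjusted p 0.0253). The call ended without control 1 (limma adjusted p 0.0570), control 2 (0.186) or DcpS shRNA 2 (0.0533). Choroid plexus and ependyma markers had a summed count of 5772 to 5971 in the controls and 4471 to 4799.6 with DcpS shRNA, mostly the thyroxine carrier Ttr, and 2 of 7 tested, Ttr (−0.38) and Aqp1 (−0.71), were lower. The other 5 were not called, with log2 fold changes of −0.47 for Folr1, −0.44 for Otx2, −0.04 for Clic6, 0.45 for Foxj1 and 0.48 for Kcne2. Their part in the fall of Slc4a5 was not tested.

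Slc4a8 (chromosome 15, 100761747 to 100823968, plus strand), the sodium-driven chloride bicarbonate exchanger NDCBE of glutamatergic terminals, was far more abundant, at 1638 and 1584 (controls) against 1358 and 1335 (DcpS shRNA). The fall was small but the libraries of each group were close together, and the log2 fold change was −0.26 (SE 0.06; limma adjusted p 0.0113). That call ended without control 1 (limma adjusted p 0.115). The presynaptic markers Snap25 and Syt1 were lower in the same libraries, as given above, and their part in the fall of Slc4a8 was not tested. The other neuronal members did not pass. Slc4a10 (NCBE), another neuronal sodium-driven exchanger, was at 513 and 532 (controls) against 519.7 and 538 (DcpS shRNA), with a 95% interval of the log2 difference of −0.15 to 0.18; intervals here are not adjusted for the number of genes. Slc4a3 (AE3), a chloride bicarbonate exchanger of excitable cells, had an interval of −0.10 to 0.21, and Slc4a7 (NBCn1), the electroneutral cotransporter with the highest level of the subfamily, one of −0.20 to 0.02. Added over all 10 members in RPKM, the Slc4 level was 31.2 and 30.9 (controls) against 29.2 and 28.5 (DcpS shRNA).

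In the Slc26 anion exchangers, 2 of 8 tested members were called lower and 6 were not called. A log2 fold change below 0 was seen in 7 of 8, against 49.8% of all genes tested, with a subfamily median of −0.21. Slc26a7 (chromosome 4, 14502430 to 14621805, minus strand), a chloride and bicarbonate carrier best known from kidney and stomach, was at 385 and 367 (controls) against 285 and 251 (DcpS shRNA). Its log2 fold change was −0.49 (SE 0.10; limma adjusted p 0.00707), and among the settings tried only DESeq2 did not call it (adjusted p 0.0569). Slc26a2 (chromosome 18, 61192919 to 61211612, minus strand), the sulfate carrier that supplies matrix-producing cells such as chondrocytes, was at 346 and 347 (controls) against 255 and 276 (DcpS shRNA). In both genes the DcpS shRNA libraries lay below both controls. The log2 fold change of Slc26a2 was −0.38 (SE 0.10; limma adjusted p 0.0281). It was not called without control 1 (limma adjusted p 0.107), control 2 (0.123) or DcpS shRNA 1 (0.0877). The fibroblast markers whose sum is given above were lower in the same libraries, and their part in the fall of Slc26a2 was not tested. Slc26a9, an epithelial chloride carrier, was at 16.2 and 16.4 (controls) against 9.09 and 12.3 (DcpS shRNA) and was not called (log2 fold change −0.58, SE 0.38).

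The chloride importer Slc12a2 fell, and the chloride exporters described here were not called. Slc12a2 (chromosome 18, 57878678 to 57946821, plus strand), the sodium potassium chloride cotransporter NKCC1, was at 1881 and 2088 (controls) against 1536 and 1546 (DcpS shRNA), so that both DcpS shRNA libraries lay below both controls. The group means were 1985 ± 146 and 1541 ± 6.45 (SD, n = 2 each), with a log2 fold change of −0.36 (SE 0.06; limma adjusted p 0.00145). Each of the 15 alternative settings called it. In the same libraries 4 of 9 tested astrocyte markers were lower and 1 higher. Of 7 tested choroid plexus and ependyma markers, 2 were lower. Their part in the fall of Slc12a2 was not tested. Slc12a5, the neuronal potassium chloride exporter KCC2, was at 381 and 420.5 (controls) against 447 and 419 (DcpS shRNA), and the groups overlapped. The 95% interval of its log2 difference was −0.08 to 0.30. Slc12a7 (KCC4) and Slc12a4 (KCC1), the more widely expressed exporters, had intervals of −0.19 to 0.06 and −0.13 to 0.22, and Slc12a4 shares 361 exonic bases with an antisense gene. Slc12a8, a distant member of the subfamily, was at 20.0 and 18.5 (controls) against 11.8 and 13.4 (DcpS shRNA) and was not called (log2 fold change −0.57, SE 0.35).

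The level of Slc12a5 was 0.297 and 0.295 of that of Slc12a2 in the controls, per kb of exon, and 0.427 and 0.398 with DcpS shRNA. The mean ratio was 0.296 ± 0.00119 in the controls and 0.412 ± 0.0205 with DcpS shRNA (SD, n = 2 per group), 1.39 times as high. Both libraries with DcpS shRNA had a higher ratio than both controls. Even so, Slc12a2 remained the more abundant of the pair in all 4 libraries. In bulk RNA the ratio is over all cells of a culture, and whether it changed within neurons was not tested. The ratio is a description without a test of its own, and because the call of Slc12a2 had been seen before the pair was set side by side it is no independent support for it. Among the kinases that switch these cotransporters by phosphorylation, Oxsr1 fell from 1696 to 1401 on average, a log2 fold change of −0.28 (SE 0.06; limma adjusted p 0.00815), a call that ended without control 2 (0.0801). Its close relative Stk39 (SPAK) had a log2 fold change of 0.09 and the upstream kinase Wnk1 one of 0.04, neither called. Of 17 tested kinases and binding partners of the transporters, Oxsr1 was the only gene called, where 5.79% of all genes tested were called.

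**Figure D4:**
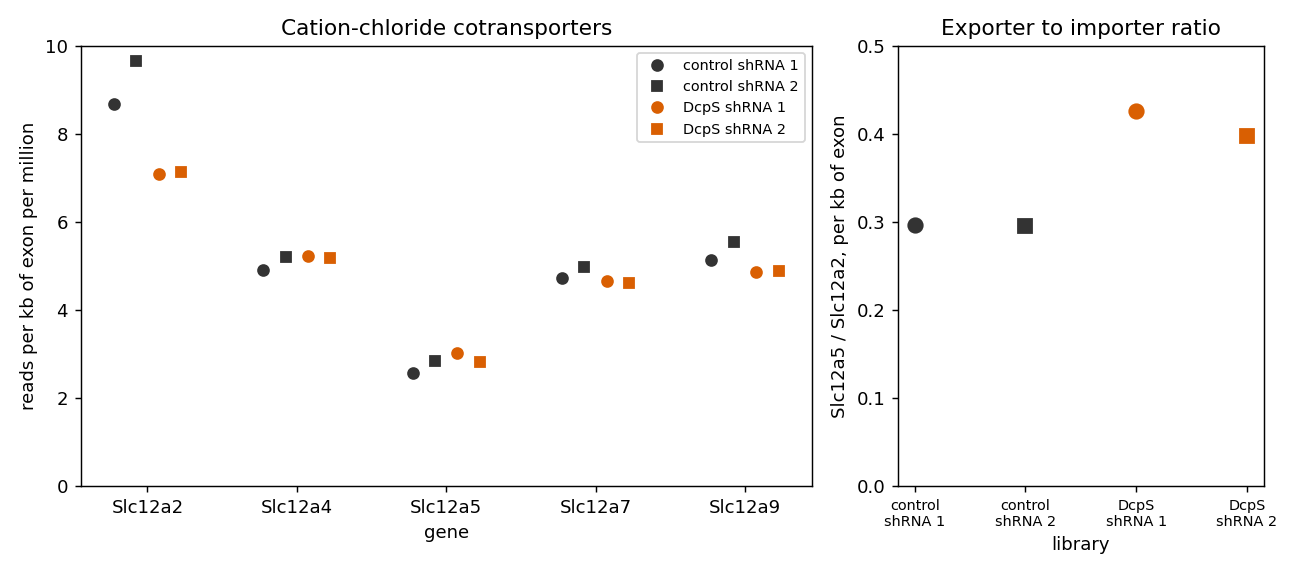
Left, level of 5 cation-chloride cotransporter genes in each library (RPKM). Right, ratio of Slc12a5 to Slc12a2 per kb of exon in each library, which lies at 0.297 and 0.295 in the controls and at 0.427 and 0.398 with DcpS shRNA. Black symbols are controls and orange symbols DcpS shRNA.

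Among the sodium proton exchangers of the Slc9 subfamily, 0 of 6 tested members were called lower. A log2 fold change below 0 was seen in 4 of the 6 and in 49.8% of all genes tested. Slc9a9 (NHE9), an endosomal exchanger, was at 50.4 and 43.1 (controls) against 30.0 and 31.3 (DcpS shRNA). It lay below both controls with DcpS shRNA and missed the threshold (limma adjusted p 0.179). The Golgi exchanger Slc9a7 (NHE7) had an interval of −0.45 to 0.28.

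None of the 7 tested calcium extruders of the Slc8 and Slc24 subfamilies was called. The sodium-calcium exchangers Slc8a1, Slc8a2 and Slc8a3 (NCX1, NCX2 and NCX3) had log2 fold changes of 0.03, 0.15 and 0.17, each above 0. Of these, Slc8a2 was at 1508 and 1534 (controls) against 1724 and 1645 (DcpS shRNA), with an interval of 0.03 to 0.27 and an adjusted p of 0.160 (limma, Benjamini-Hochberg). Slc8a3 was likewise higher in both DcpS shRNA libraries, and the groups overlapped in Slc8a1. The potassium-dependent exchangers Slc24a2 and Slc24a3 (NCKX2 and NCKX3), known from neurons, had wider intervals, −0.52 to 0.29 and −0.41 to 0.22. Slc24a5, the exchanger of pigment granules, had the highest level of its subfamily, but 921 of its exonic bases are shared with Myef2 on the other strand.

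Of the 4 plasma-membrane calcium pump genes, which work beside these exchangers, 1 was called lower and 1 higher. Atp2b4 (PMCA4) fell, at 1575 and 1651 (controls) against 1195 and 1094 (DcpS shRNA), with a log2 fold change of −0.50 (SE 0.06; limma adjusted p 0.000108). Atp2b2 (PMCA2) rose, at 1546 and 1597 (controls) against 1969.8 and 1839 (DcpS shRNA), with a log2 fold change of 0.28 (SE 0.06; limma adjusted p 0.00805), a call that ended without control 1 (0.0740). Atp2b1 and Atp2b3 were not called, with log2 fold changes of −0.16 (SE 0.06) and 0.25 (SE 0.11). Atp1b1, the beta subunit of the sodium pump, whose gradient drives most of the carriers above, was at 1031 and 1179 (controls) against 786 and 947 (DcpS shRNA), a log2 fold change of −0.35 (SE 0.09; limma adjusted p 0.0346). That call ended without control 2 (0.168) or DcpS shRNA 1 (0.0882), and by DESeq2 (adjusted p 0.0590). In all, 4 of 16 tested ion and metal ATPases were lower and 1 higher, against 3.65% lower and 2.14% higher of all genes tested. The active enzymes of the carbonic anhydrase family make the bicarbonate carried by Slc4 proteins. Of 10 tested genes of this family Car12 alone was called, where 5.79% of all genes tested were called. Car12 was lower, with a log2 fold change of −0.37 (SE 0.10; limma adjusted p 0.0486). That call ended without control 2 (0.430), DcpS shRNA 1 (0.0739) or DcpS shRNA 2 (0.0732), and with library-total scaling (0.0510) or DESeq2 (adjusted p 0.285).

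Among the zinc importers of the Slc39 subfamily, 2 of 13 tested members were called lower and 0 higher. Slc39a11 (chromosome 11, 113244853 to 113650079, minus strand), an intracellular ZIP carrier, was at 607 and 660.4 (controls) against 427 and 453 (DcpS shRNA). The 2 groups were well apart, with means of 634 ± 37.7 and 439.8 ± 18.1 (SD, n = 2 each). It had the smallest p of all members, with a log2 fold change of −0.53 (SE 0.08; limma adjusted p 0.000721), and was called in all 15 alternative settings. Slc39a8 (chromosome 3, 135825279 to 135888572, plus strand), the ZIP8 carrier of zinc and manganese, was the rarest tested member, at 14.3 and 14.4 (controls) against 3.63 and 2.23 (DcpS shRNA). Its recovered reads numbered 15 and 14 in the controls against 4 and 2 with DcpS shRNA. Only the controls met the filter's minimum count of 10. The gene was thus tested only because of the group where it was high, and its call as lower is limited by that. The log2 fold change was −1.98 (SE 0.52; limma adjusted p 0.0344), with a wide interval of −3.09 to −0.88. The call ended without control 1 (limma adjusted p 0.178), control 2 (0.201) or DcpS shRNA 2 (0.0856).

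Other importers lay below their controls without passing the threshold. Slc39a12 (ZIP12), a zinc carrier with high expression in brain, was at 38.0 and 41 (controls) against 20.0 and 22.3 (DcpS shRNA). Its log2 fold change was the largest among members not called, −0.87 (SE 0.26; limma adjusted p 0.0659). Slc39a10 (ZIP10) was at 1516 and 1629 (controls) against 1400.1 and 1356 (DcpS shRNA), a log2 fold change of −0.19 (SE 0.06; limma adjusted p 0.0745), and it was called without DcpS shRNA 1 (0.0394). Slc39a14 (ZIP14), which also carries iron and manganese, was at 459 and 557 (controls) against 439 and 386 (DcpS shRNA), a log2 fold change of −0.30 (SE 0.10; limma adjusted p 0.102). It was called without control 1 (0.0152) or DcpS shRNA 1 (0.0272). In contrast, the most abundant member, Slc39a6 (ZIP6), was at 2401 and 2402 (controls) against 2611 and 2657 (DcpS shRNA), above both controls and not called (limma adjusted p 0.168). Added over its 14 members in RPKM, the Slc39 level was 99.5 and 102 (controls) against 96.9 and 97.6 (DcpS shRNA).

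None of the 7 tested zinc exporters of the Slc30 subfamily was called, and 6 of them lay within 0.1 of 0 on the log2 scale. The exception was Slc30a1 (ZnT1), the plasma-membrane exporter, at 445 and 344 (controls) against 494 and 425 (DcpS shRNA), with an interval of −0.02 to 0.48. It was called without control 1 (limma adjusted p 0.0324), the control with the higher count. It shares 468 exonic bases with an antisense gene, and Slc30a10 shares 533 with a noncoding gene on the other strand. Slc30a10 (ZnT10), mainly a manganese exporter and the highest member of the subfamily, was at 1373 and 1293 (controls) against 1444 and 1261 (DcpS shRNA), with overlapping groups. Metallothioneins, small proteins that bind cytosolic zinc and copper, were higher for 2 of the 3 genes tested. Mt2 was at 351 and 375 (controls) against 515 and 511 (DcpS shRNA), a log2 fold change of 0.50 (SE 0.08; limma adjusted p 0.00166), and was called in all 15 alternative settings. Mt1 was at 1204 and 1144 (controls) against 1354 and 1409 (DcpS shRNA), with a log2 fold change of 0.23 (SE 0.06; limma adjusted p 0.0278), but its call ended without control 1 (0.0544), control 2 (0.248) or DcpS shRNA 2 (0.0755), and by DESeq2 (adjusted p 0.182). The neuronal metallothionein Mt3 (0.14) and the zinc-sensing factor Mtf1 (0.04) were not called.

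Slc30a1, Mt1 and Mt2 are textbook targets of Mtf1, which binds metal response elements, so their promoters are shown side by side. The sequences come from RefSeq (GRCm38.p6) and run from 250 bases before to 50 bases after the annotated start. Matches to the core of the element, TGCACNC or TGCGCNC on either strand, are in capitals.

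Slc30a1 (chr1:191906531-191906830, plus strand): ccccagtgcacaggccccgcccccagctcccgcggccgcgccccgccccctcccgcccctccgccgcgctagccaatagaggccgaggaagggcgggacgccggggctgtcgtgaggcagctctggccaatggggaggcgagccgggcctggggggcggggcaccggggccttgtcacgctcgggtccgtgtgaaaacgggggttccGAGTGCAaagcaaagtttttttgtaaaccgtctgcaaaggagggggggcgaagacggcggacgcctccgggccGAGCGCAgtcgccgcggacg

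Mt1 (chr8:94178839-94179138, plus strand): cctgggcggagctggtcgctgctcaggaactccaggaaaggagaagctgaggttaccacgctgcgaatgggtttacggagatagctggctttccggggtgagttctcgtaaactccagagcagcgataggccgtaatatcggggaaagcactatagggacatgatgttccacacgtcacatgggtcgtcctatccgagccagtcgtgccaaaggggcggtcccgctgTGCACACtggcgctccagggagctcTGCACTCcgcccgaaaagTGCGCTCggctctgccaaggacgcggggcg

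Mt2 (chr8:94172368-94172667, plus strand): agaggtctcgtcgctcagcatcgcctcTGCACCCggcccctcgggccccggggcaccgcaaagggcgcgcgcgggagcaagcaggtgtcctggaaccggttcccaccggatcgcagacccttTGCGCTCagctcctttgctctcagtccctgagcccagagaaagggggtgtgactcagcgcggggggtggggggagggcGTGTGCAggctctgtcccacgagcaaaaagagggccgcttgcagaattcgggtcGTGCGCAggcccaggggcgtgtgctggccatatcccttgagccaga

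The window of Slc30a1 held 2 matches, both on the minus strand, that of Mt1 held 3, all on the plus strand, and that of Mt2 held 4, with 2 on each strand. Of all 32851 promoters in the table, 25.7% held at least 1 match, 7.11% at least 2, 1.97% at least 3 and 0.517% at least 4. RefSeq promoters were found for 59 of the 77 transporter genes, 74 promoters in all, of which 28 (37.8%) held at least 1 match. Slc30a4 and Slc30a10, which were not called, each had a promoter with 3 matches. These genes and this element were picked after the values had been seen, and a match of letters is a description, not a site of binding.

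**Figure D5:**
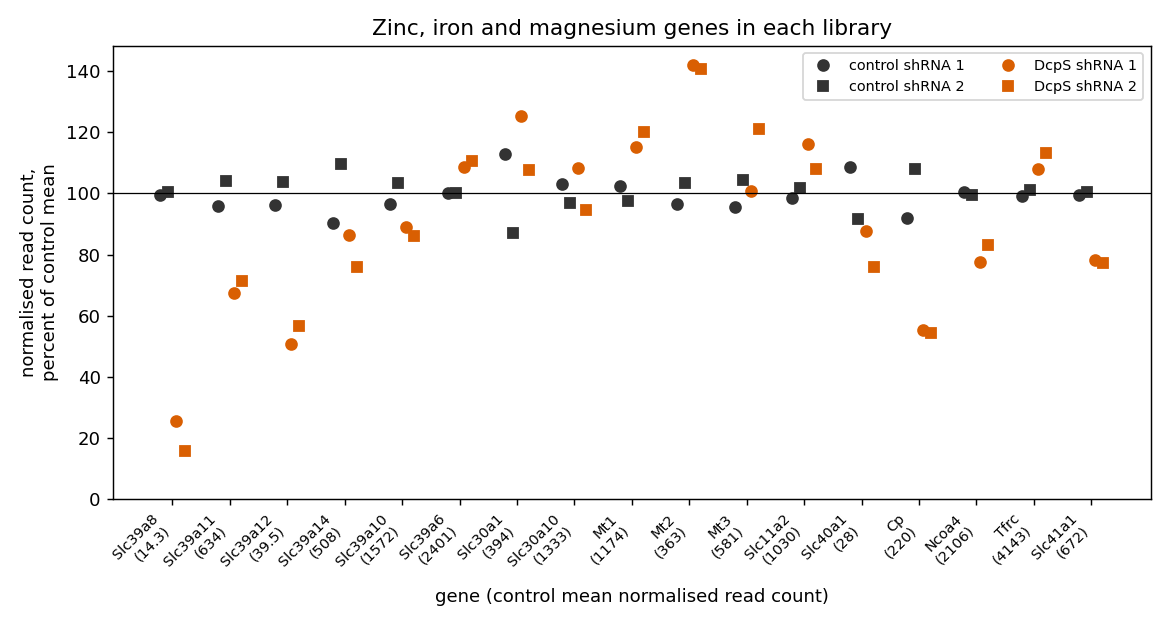
Normalised read count in each library as a percent of the control mean (y axis) for zinc, iron and magnesium genes, with the control mean in parentheses under each name. Black symbols are controls and orange symbols DcpS shRNA libraries (circle, replicate 1; square, replicate 2); Slc39a8, Slc39a11, Cp, Ncoa4 and Slc41a1 were called lower, and Mt1 and Mt2 higher.

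The iron carriers themselves were not called. Slc11a2 (DMT1), the importer of ferrous iron, was at 1014 and 1047 (controls) against 1198 and 1112 (DcpS shRNA), above both controls, with a log2 fold change of 0.16 (SE 0.06; limma adjusted p 0.160). It shares 402 exonic bases with Gm5475 on the other strand. Slc11a1 (NRAMP1), the metal carrier of macrophage phagosomes, was at 20.9 and 18.5 (controls) against 22.7 and 41.3 (DcpS shRNA). Its spread lay mostly in DcpS shRNA 2, and the interval of the log2 difference was −0.06 to 1.29. None of 7 tested microglia and macrophage markers was called by limma, none had an unadjusted p under 0.05 other than Tmem119 (0.0390), and their summed count was 258 to 271 in the controls and 237 to 259 with DcpS shRNA. Slc40a1 (ferroportin), the only known iron exporter, was at 30.4 and 25.6 (controls) against 24.5 and 21.2 (DcpS shRNA), with an interval of −0.88 to 0.32. Of 24 tested genes of intracellular metal handling 2 were lower and 2, Mt1 and Mt2, higher, against 3.65% lower and 2.14% higher of all genes tested. Cp, the ferroxidase that works with ferroportin, was at 202 and 238 (controls) against 122 and 119.6 (DcpS shRNA), a log2 fold change of −0.86 (SE 0.13; limma adjusted p 0.000708). Ncoa4, the receptor that delivers ferritin for breakdown, was at 2116 and 2096 (controls) against 1635 and 1749 (DcpS shRNA), a log2 fold change of −0.32 (SE 0.06; limma adjusted p 0.00252). Both were called in all 15 alternative settings. The ferritin subunits Fth1 (0.04) and Ftl1 (0.01) and the transferrin receptor Tfrc (0.14) were not called.

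Of the 3 magnesium carriers 1 was called. Slc41a1 (chromosome 1, 131827493 to 131848865, plus strand), a plasma-membrane magnesium carrier, was at 668 and 676 (controls) against 526 and 519.6 (DcpS shRNA), so that both DcpS shRNA libraries lay below both controls. Its log2 fold change was −0.36 (SE 0.07; limma adjusted p 0.00624), and DESeq2 alone among the settings tried did not call it (adjusted p 0.0592). Slc41a2 and Slc41a3, the other 2 members, lay above their controls in both libraries, with log2 fold changes of 0.21 and 0.33 that were not called. No exonic base of the 10 called members is shared with another annotated gene (GENCODE M21), whereas 17 of the 62 tested members share some.

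An earlier analysis of these data found 2 words of 7 bases, ACGTGCA and CACGTGC, in the 3′ UTRs of many lower genes and in that of Dcps, the gene the hairpin targets. They were looked for, in the sense direction, in the 3′ UTRs of all annotated transcripts, and the words overlap in 6 bases. Of the 62 tested members 10 (16.1%) held a word, against 9.49% of 13703 tested genes with an annotated 3′ UTR. Of these 10 members 5 were lower, 5 were not called and 0 were higher. Among all 1301 tested genes with a word 17.2% were lower, and among those without one 3.39%. Of the 52 members with no word 4 were lower, namely Slc4a4, Slc4a5, Slc4a8 and Slc26a7. The lower members with a word were Slc12a2, Slc26a2, Slc39a8, Slc39a11 and Slc41a1. The site of Dcps is shown first, then those of 3 lower members and then those of 3 members that were not called, with each word in capitals and the position of the capitals on GRCm38 (GENCODE M21).

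Dcps (chr9:35124756-35124763, minus strand): actatcacctgCACGTGCAtttcacagct

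Slc39a8 (chr3:135887263-135887270, plus strand): catgaagcaaaCACGTGCAttcacaagca

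Slc41a1 (chr1:131847279-131847286, plus strand): gcccgcagagtCACGTGCActggagattc

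Slc39a11 (chr11:113244970-113244976, minus strand): gtggtgattggCACGTGCgtatatatttt

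Slc30a10 (chr1:185468647-185468654, plus strand): ccatggatgtgCACGTGCAcacctgttgc

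Slc39a3 (chr10:81029033-81029040, minus strand): accccgggctcCACGTGCAccttccccca

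Slc30a9 (chr5:67355062-67355068, plus strand): tctagaagcagACGTGCAttccagaagca

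The sites of Dcps, Slc39a8, Slc41a1, Slc30a10 and Slc39a3 held both words in one run of 8 bases, and those of Slc39a11 and Slc30a9 held 1 word each. Slc39a3 also had a second site, not shown, with CACGTGC alone. Slc39a8, which had enough reads to be tested only in its controls, stood at 20.5% of its control mean, and Slc41a1 at 77.8%. Slc30a10 and Slc39a3, with the same run, stood at 101% and 97.2%. Of the other 4 members with a word, whose sites are not shown, Slc12a2 and Slc26a2 were lower, at 77.6% and 76.7%, and Slc39a9 and Slc41a2 stood at 109% and 115% and were not called. Since the words were found in these libraries, these counts are no independent evidence, and the part of the words in the falls was not tested.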

How the data were processed

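RNA was sequenced from 4 cultures, 2 with control shRNA and 2 with DcpS shRNA. Per the submitters' processing notes the tools were HISAT2 2.2.0, SAMtools 1.3.1, Picard, featureCounts and DESeq2, with the build GRCm38; the sources used here give no annotation and no use of strand. The table deposited by the authors holds a signal scaled by 1 size factor per library, with 1 column per library. Every value was a whole multiple of its column's smallest positive value (100% within 0.001), so whole reads were recovered, and the factors they imply equalled median-of-ratios size factors.

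Genes were kept by filterByExpr of edgeR 4.0.16 (minimum count 10), which left 18110 of 32681. The main test was limma 3.58.1 on log2(normalised read count + 1) with a mean-variance trend and robust moderation; the model held the group alone, and p-values were two-sided and Benjamini-Hochberg adjusted over all genes, threshold 0.05. The script was tested on simulated reads. On the recovered reads edgeR called 1077 genes and DESeq2 1.42.0 called 448. Gene lengths, coordinates and 3′ UTRs are from GENCODE M21 (GRCm38). Median scaling would not show a shift of all transcripts together.

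The members, lists and tests were chosen with earlier results of these data known. Members named are those called, the highest of each subfamily by level, the 5 largest changes not called, and a fixed list of well-known members; others are given where a paragraph needs them, and some items, the 1 member called higher among them, are not reported here. Alternatives were other pseudocounts, filters, scalings and tests, a replicate block, and leaving out each library.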

Additional observations from a re-analysis of the deposited data

How the results depend on the processing

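Of the 10 calls among transporter genes, those of Slc4a4, Slc12a2 and Slc39a11 held in all 15 alternatives, and no named member called in the main setting changed direction in any. Called members numbered 7 to 11 when 1 library was left out (higher 1 to 2, lower 6 to 10), and all genes called 594 to 1439. DESeq2 called 3 members, 3 lower and 0 higher, and 448 genes, and gave Slc39a8 no adjusted p. Higher members numbered 2 without an expression filter, 2 with edgeR under TMM, 2 with edgeR under median-of-ratios factors and 2 with the replicate block; the cause was not tested. The median log2 fold change of the members was −0.043 without an expression filter and −0.063 to −0.043 when 1 library was left out. The ratio of Slc12a5 to Slc12a2 counts with DcpS shRNA was 0.281, and 0.271 to 0.291 when 1 library was left out. Libraries of the same number deviated together only weakly (r = 0.0429 across 18110 genes, which are not independent replicates), so the numbers were not taken as pairs. With the replicate block all 10 calls were kept and 4 members added, among them Slc39a10 (adjusted p 0.0364), Slc39a12 (0.0297) and Slc39a14 (0.0184), and 1626 genes were called. Leaving out a library leaves 1 in its group, which is then assumed to vary like the other group. Depth limits the low members: Slc39a8 rests on 35 reads in all. A filter of at least 1 CPM on average left it untested, and 8 members were then lower.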
